A study of Mus musculus with 46 samples.

Results

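The genes described here are 32 mouse genes that act in mitosis and in the spindle: the cyclins of mitosis with their kinase, the mitotic kinases, the spindle checkpoint, the kinetochore, the spindle motors and the proteins of cytokinesis. They were chosen by symbol and not by their values, out of the 24537 genes in each of 8 gene tables. Each of the 32 was found once in each table, and all 32 passed the filter on low values in each comparison (a mean log2 value of at least 4, or edgeR's filter in the table of counts).

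Cells that divide make most of these transcripts in G2 and mitosis and few of them when they rest, so their level in bulk RNA follows how many cells are cycling. Cyclin A and the B cyclins switch on Cdk1, which drives entry into mitosis. The checkpoint kinases hold the anaphase-promoting complex (APC/C) in check until each chromosome is attached, and then Cdc20 and Ube2c let it destroy the B cyclins. Many of their promoters carry CCAAT boxes and a cell cycle homology region (CHR), which the DREAM, B-Myb and FoxM1 complexes use in turn through the cell cycle. The CDK inhibitor p21, encoded by Cdkn1a, holds such genes down.

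RNA of B16F10 melanoma, MC38 colon carcinoma and mouse embryonic fibroblasts (MEFs) was sequenced in groups of 2 libraries, after loss of Arid1a, which encodes a DNA-binding part of the SWI/SNF (BAF) remodeller of chromatin, or with added agents. B16F10 cells had a scrambled guide RNA (sgScramble) or one that targets Arid1a (sgArid1a). They were taken from tumors under the skin at day 15, from cultures given PBS or murine interferon-gamma (IFNγ, 24 h), or from untreated cultures. Further sgArid1a cultures were given DMSO or ruxolitinib, an inhibitor of JAK kinases, or an antibody that blocks the receptor of type I interferons (anti-IFNAR), for 72 h, and sgScramble cultures were given DMSO beside them. The double-knockout (dKO) cultures, untreated, are labelled as sgArid1a with sgCgas or with sgSting. Their cell line labels name B16F11, B16F12, B16F13 and B16F14 while their titles name B16F10, and they were taken as B16F10. sgScramble cells were given DMSO, the compound BD98, or BD98 with anti-IFNAR for 72 h. MC38 cells carried the same 2 kinds of guide without treatment, and Arid1a fl/fl MEFs were given ethanol (labelled WT) or tamoxifen (labelled Arid1a -/-) and taken on day 5. The sources used here do not give whether guide cells were pools or clones, which Cre the MEFs carried, or whether replicates were separate cultures or animals, so p-values measure only the spread between these libraries, which may be technical.

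The labels were checked first. Arid1a was lower with its guide or deletion in tumors, untreated cultures and MC38 cells, where the groups do not overlap, and in MEFs (log2 10.52 and 10.79 with ethanol, 10.12 and 10.32 with tamoxifen). In DMSO cultures it was at 11.76 and 11.29 with sgScramble against 11.29 and 11.24 with sgArid1a, and did not pass the test (adjusted p = 0.235, limma). In the IFNγ experiment it did not follow the labels (12.42 and 12.40 in PBS libraries labelled sgScramble, 12.25 and 12.40 in those labelled sgArid1a). In the libraries labelled Cgas dKO it was at 11.03 and 10.74 and in those labelled Sting dKO at 10.71 and 10.83, above the untreated sgArid1a values of 10.43 and 10.39 in both (adjusted p = 0.00596 and 0.0238, limma), with sgScramble at 10.90 and 11.08. Mb21d1, which encodes cGAS, differed by 0.00 between the Cgas dKO and sgArid1a labels (adjusted p = 0.989), and Tmem173, which encodes STING, fell by 0.54 ± 0.10 under the Sting dKO label (adjusted p = 0.00153, limma). These groups are named by their labels throughout. Depth was 8.7 to 38.8 M reads per library. The lowest depth was in an untreated sgScramble library, and its group partner had 22.8 M reads. The 4 untreated sgScramble and sgArid1a libraries stood apart in Ccnb1, which, set against the mean of the other 31 in the same library, was at -0.31 to -0.09 on the log2 scale there, at -1.77 to -1.20 in the 24 B16F10 libraries of the tumor, IFNγ, DMSO and ruxolitinib, and BD98 tables, and at -1.36 to -1.16 in the dKO libraries. The 2 anti-IFNAR libraries, deposited in a table with those 4, were close to them in Ccnb1 (10.99 and 10.84 against 10.76 to 11.05).

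Per length of transcript, Ube2c and Top2a, the topoisomerase that untangles chromosomes, were the highest of the 32. In DMSO cultures of the BD98 experiment Ube2c was at 149.7 and 157 CPM (counts scaled to the library's total) per kilobase, and Top2a at 145 and 141. Those 2 genes also ranked 1 and 2 in control tumors, MC38 cells, MEFs and untreated cultures. The lowest was Cenpf, a large kinetochore protein, at 14.5 and 15.6 CPM per kilobase. Neighbours in this order often did not differ beyond the 2 libraries, as with Cenpf and Ttk, which had 17.98 and 15.0.

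The promoters of these genes share letters that the choice by symbol did not use. RefSeq windows (GRCm38.p6) were matched for 27 of the 32 genes and not for Aurkb, Ccna2, Foxm1, Kif20a and Tpx2. CCAAT, on either strand, stood within 250 bases before the start of 21 of the 27 (77.8%), against 35.6% of all 17112 matched windows. Within 100 bases it stood in 19 (70.4%), against 21% of all, and 10 of the 27 held it 2 or more times there, against 4.52%. TTTGAA, the CHR letters, stood within 100 bases in 6 (22.2%), against 4.48% of all, and within 250 bases in 8 (29.6%, against 14.2%), each of which also held CCAAT. Searches were on both strands. CCAAT and TTTGAA can share only a base at their ends, and a match is a description of the letters only.

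Windows of 5 genes named in the results below are shown to let the boxes be seen. Each is the 120 bases before the start site, 5′ to 3′ on the gene's strand, from RefSeq with GRCm38.p6 coordinates, and capitals mark CCAAT or TTTGAA on either strand. They are Cdk1 at chr10:69352913-69353032 (minus strand), Ube2c at chr2:164769809-164769928 (plus), Cdc20 at chr4:118437344-118437463 (minus), Ccnb2 at chr9:70421555-70421674 (minus) and Ccnb1 at chr13:100786487-100786606 (minus).
Cdk1: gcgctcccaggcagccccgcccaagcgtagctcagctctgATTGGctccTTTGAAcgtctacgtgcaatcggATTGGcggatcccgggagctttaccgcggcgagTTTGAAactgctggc
Ube2c: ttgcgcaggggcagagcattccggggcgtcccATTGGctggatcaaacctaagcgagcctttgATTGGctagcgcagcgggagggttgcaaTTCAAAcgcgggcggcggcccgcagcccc
Cdc20: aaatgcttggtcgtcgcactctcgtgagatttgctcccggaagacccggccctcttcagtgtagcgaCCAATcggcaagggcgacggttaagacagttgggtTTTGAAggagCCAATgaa
Ccnb2: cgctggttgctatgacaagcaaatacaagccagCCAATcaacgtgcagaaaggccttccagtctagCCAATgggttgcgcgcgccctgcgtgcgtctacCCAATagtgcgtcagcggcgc
Ccnb1: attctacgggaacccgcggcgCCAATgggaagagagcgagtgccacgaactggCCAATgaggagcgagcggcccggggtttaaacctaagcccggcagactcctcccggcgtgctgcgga
The Cdk1 window holds CCAAT 80 and 48 bases and TTTGAA 71 and 15 bases before the start, and the Ube2c window holds CCAAT 88 and 57 bases and TTTGAA 29 bases before it. Ccnb2 has 3 CCAAT boxes at 87, 54 and 21 bases and its only TTTGAA further out, at 167 bases. Cdc20 has CCAAT at 53 and 8 bases and TTTGAA at 18 bases. Ccnb1 has CCAAT at 99 and 67 bases and no TTTGAA within 250 bases. Genes without these boxes are not shown: Nusap1, Ndc80, Anln, Mad2l1, Nuf2 and Birc5 hold neither CCAAT nor TTTGAA within 250 bases. Kif23 holds a single CCAAT, 7 bases before the start.

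In tumors the mitotic genes were lower with sgArid1a throughout. Of the 32, 31 fell and 0 rose (limma, adjusted p under 0.05), where 28.1% of all tested genes fell and 26% rose. Their median log2 fold change was -0.48, against -0.02 over all tested genes. The mean over the 32 was 11.99 and 12.04 in the sgScramble tumors and 11.55 and 11.52 in the sgArid1a tumors. In bulk RNA, fewer cells of a type and less RNA per cell cannot be told apart.

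The 5 genes with the smallest p in tumors come from different steps of mitosis. Ube2c, the ubiquitin-conjugating enzyme of the APC/C (NM_026785, mm10 chromosome 2, 164769929 to 164772902, plus strand), was at 11.95 and 11.92 in sgScramble tumors against 11.22 and 11.24 in sgArid1a tumors, a fall of 0.71 ± 0.06 (SE, n = 2 libraries per group, limma adjusted p = 9.39e-07). Tpx2, which loads Aurora A onto the spindle, was at 12.55 and 12.52 with sgScramble against 11.89 and 11.87 with sgArid1a. In both genes the gap between the groups is far wider than the gap within either. Ccnb2, a B cyclin, was at 12.11 and 12.16 against 11.50 and 11.49. Aurka, the kinase of the spindle poles, was at 11.73 and 11.57 against 10.93 and 10.94. Bub1b, the checkpoint protein BubR1, was at 11.96 and 12.001 against 11.36 and 11.37. Both sgArid1a tumors lie below both sgScramble tumors in these genes and in each of the 32, a pattern that 40% of all tested genes show.

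The size of the fall in tumors varied between genes. It was largest in Nusap1, a microtubule-binding protein (11.66 and 11.96 against 11.09 and 10.95, log2 fold change -0.79 ± 0.09, adjusted p = 1.39e-05, limma), or 57.9% of the control level on these values (-0.88 in the authors' deposited table). Bub1, a checkpoint kinase of the kinetochore, followed at -0.77, with 12.07 and 12.28 against 11.50 and 11.30. The smallest differences were in Cenpf (-0.16, adjusted p = 0.0755, the 1 gene not called), Nuf2 of the kinetochore (-0.20) and Mki67 (-0.22), the gene of the proliferation marker Ki-67. Mki67 was at 13.88 and 13.97 with sgScramble against 13.77 and 13.64 with sgArid1a. By role the median log2 fold change ran from -0.37 in the 5 centromere and kinetochore genes to -0.59 in the 4 spindle motor and microtubule genes, and all 6 checkpoint and APC/C genes and all 4 cyclin and Cdk1 genes fell. The authors' deposited table also has 31 of the 32 lower, where 17.4% of all genes were lower and 16.5% higher, with a median of -0.53. Of the 31 calls 29 held under each of 7 alternative settings, and those of Mki67 and Nuf2 did not.

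**Figure D1:**
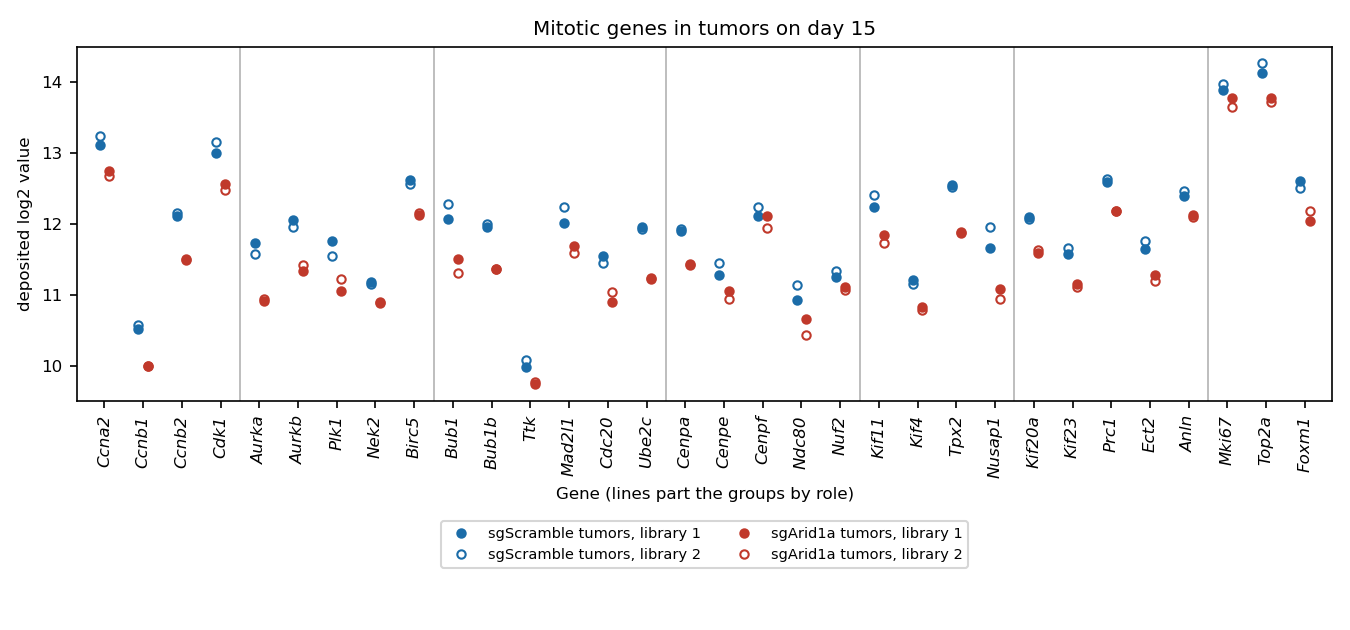
Deposited log2 value (y axis) of each of the 32 genes (x axis) in the 2 sgScramble tumors (blue) and the 2 sgArid1a tumors (red), 1 point per library. The red points lie below the blue ones for each gene, by 0.79 in Nusap1 and by 0.16 in Cenpf on the log2 scale.

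Related genes in tumors were read from lists made for this purpose. Of 74 other mitotic genes 67 fell and 0 rose (median -0.42), led by Cdc25b, the phosphatase that activates Cdk1 (-0.89 ± 0.06, adjusted p = 2.92e-07, limma), and Cenpn. All 19 genes of replication licensing and S phase fell (median -0.60), as did 7 of 8 condensin subunits and 11 of 19 E2F, pocket protein and MuvB genes, among which Mybl2, encoding B-Myb, fell by 0.87. Of the 6 tested of 7 CDK inhibitors 1 rose and 2 fell. Cdkn1a was the 1 that rose, at 12.33 and 12.17 with sgScramble against 13.28 and 13.36 with sgArid1a. The rise was 1.07 ± 0.07 (adjusted p = 8.54e-08, limma). Cdkn2d, another CDK inhibitor, fell by 0.39.

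Cell type markers moved with the group in tumors. All 10 skeletal muscle markers rose, and the log2 of their summed level was 10.84 to 10.90 with sgScramble and 13.67 to 13.68 with sgArid1a. Of 10 macrophage markers 9 rose (13.23 to 13.31 against 14.37 to 14.43), and 0 markers of either list were at 0 in all libraries. Of 8 melanocyte markers 4 fell and 1 rose (19.72 to 19.74 against 19.29 to 19.30), and 5 of the 5 tested of 6 erythroid markers fell (12.43 to 12.56 against 11.02 to 11.14). All 4 tested of 7 T cell markers rose (6.90 to 6.91 against 7.33 to 7.34), and 3 of 9 fibroblast markers rose and 4 fell (16.22 to 16.29 against 16.004 to 16.02). Of 7 endothelial markers 6 rose and 1 fell (13.46 to 13.60 against 13.55 to 13.60). Of the 4 tested of 7 neutrophil markers 1 rose and 3 fell (8.11 to 8.15 against 7.75 to 7.78), and of the 3 tested of 8 epithelial markers 1 fell (8.10 to 8.11 against 7.89 to 8.05), with 1 of the 8 at 0 in all libraries. The part of these cells in the lower mitotic genes was not tested.

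In cultured B16F10 cells the same guide gave no such fall. In untreated cultures 4 of the 32 genes rose and 0 fell, against 5.84% of all tested genes that rose and 5.98% that fell, with a median of 0.12. The 4 were Bub1b (log2 fold change 0.48 ± 0.09, adjusted p = 0.00411, limma), the checkpoint kinase Ttk (0.41), the APC/C activator Cdc20 (0.38) and Cdk1 (0.33). Bub1b (NM_009773, mm10 chromosome 2, 118598211 to 118641592, plus strand) was at 10.41 and 10.54 with sgScramble against 10.99 and 10.94 with sgArid1a. Cdk1 was at 11.84 and 11.70 with sgScramble against 12.01 and 12.20 with sgArid1a. Ttk was at 9.09 and 8.82 against 9.33 and 9.40, and Cdc20 at 10.10 and 10.16 against 10.60 and 10.43. The sgArid1a libraries are above both controls in these 4, but 4 genes, Ndc80 with -0.09 at the lowest, had negative fold changes. The count of risen genes was 7 without sgScramble replicate 1, the library of lowest depth, 0 without sgArid1a replicate 1 and 1 without sgArid1a replicate 2. Among related genes 9 of 19 replication genes rose, led by Tk1, the thymidine kinase (0.56 ± 0.10, adjusted p = 0.00302, limma), and Cdkn1a was at -0.27 (adjusted p = 0.126, limma). The authors' deposited table has 1 of the 32 higher, Bub1b, and 0 lower, where 420 of 24537 genes were higher and 583 lower.

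In the DMSO cultures 2 of the 32 genes rose, Bub1b (0.31 ± 0.08, adjusted p = 0.031, limma) and the chromokinesin Kif4 (0.30), and 0 fell, against 3.50% and 4.38% of all tested genes. Bub1b was at 10.90 and 10.87 with sgScramble against 11.16 and 11.21 with sgArid1a. Kif4 was at 10.34 and 10.28 against 10.63 and 10.59. Both groups are tight in these 2 genes and do not overlap. The authors' deposited table has 0 of the 32 higher or lower, where 306 of 24537 genes were higher and 557 lower. The 2 sgScramble libraries differed in other genes, for example Mki67 at 13.45 and 13.03 and Arid1a at 11.76 and 11.29. Without sgScramble replicate 1 the counts were 14 higher and 4 lower, without sgScramble replicate 2 they were 6 and 0, and without either sgArid1a library 0 genes were called.

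The PBS cultures gave small values in the other direction. Of the 32 genes 0 were called between libraries labelled sgArid1a and sgScramble, where 2.37% of all tested genes were called higher and 0.348% lower. An unadjusted p under 0.05 was found in 14 of the 32, 13 of them lower (limma). Of all tested genes 1540 of 12357 had such a p, in either direction. The median of the 32 was -0.07. Mki67 was at 13.96 and 13.83 in the libraries labelled sgScramble and at 13.71 and 13.74 in those labelled sgArid1a (-0.17, adjusted p = 0.0896), while Top2a was at 14.14 and 14.09 against 14.23 and 14.27 (0.13, adjusted p = 0.0819). The authors' deposited table has 1 of the 32 higher and 2 lower, where 405 of 24537 genes were higher and 110 lower. Arid1a did not follow the guide labels in this experiment, so the direction rests on the labels alone.

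MC38 cells had small differences. Of the 32 genes 17 fell and 0 rose with sgArid1a, against 12.9% and 8.33% of all tested genes, and the median was -0.09. The largest fall was in Ect2, which activates RhoA at the cell equator (NM_001177626, mm10 chromosome 3, 27097222 to 27153878, minus strand): 10.70 and 10.69 with sgScramble against 10.43 and 10.43 with sgArid1a, or -0.27 ± 0.03 (adjusted p = 2.66e-08, limma). Ube2c was at 11.62 and 11.60 against 11.38 and 11.36, and Anln, the actin-binding protein of the cleavage furrow, at 11.40 and 11.35 against 11.10 and 11.17. Kif23, a kinesin of the central spindle, was at 10.56 and 10.54 against 10.35 and 10.34, and its partner Prc1, which bundles microtubules there, at 10.85 and 10.89 against 10.73 and 10.73. Of the 5 genes with the smallest p, 4 belong to the central spindle and cytokinesis group, in which 4 of 5 fell, while 0 of the 5 centromere and kinetochore genes were called. Kif23, Ube2c, Ect2 and Anln were called under each of 7 alternative settings, and the other 13 were not. Leaving out sgArid1a replicate 1 gave 5 calls and leaving out replicate 2 gave 7, and there were 6 without the filter on low values. Of 74 other mitotic genes 4 rose and 8 fell, Mybl2 fell by 0.33, and Cdkn1a was at -0.05 (adjusted p = 0.186, limma). For the 32, the authors' deposited table has 6 lower and 0 higher, where 631 of 17367 genes were lower and 283 higher.

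In MEFs 1 of the 32 genes fell, Prc1, and 0 rose, against 5.01% and 4.69% of all tested genes, in the fit without a replicate block. With the block most of the 32 were called, as given at the end, and same-numbered deviations correlated at 0.69. The labels do not pair these replicates, and the share of all genes called with the block is not given. The authors' deposited table has 0 of the 32 higher or lower, where 380 of 17508 genes were higher and 452 lower. Prc1 was at 11.96 and 11.87 with ethanol and 11.73 and 11.67 with tamoxifen (-0.22 ± 0.06, adjusted p = 0.0491, limma). All tamoxifen values of Prc1 lie below the ethanol values, as they do in 21 of the 32 genes and in 28.4% of all tested genes. Kif23, with 11.05 and 10.98 against 10.85 and 10.79, did not pass the test (adjusted p = 0.0638). The median of the 32 was -0.10, and the fold change was negative in 31 of 32, Aurkb being the exception. The Prc1 call was lost in 4 of 7 alternatives: without ethanol replicate 1, without either tamoxifen replicate, and with the libraries centred on their medians. The count was 0 without ethanol replicate 1, without tamoxifen replicate 2 and with centring, it was 1, another gene than Prc1, without tamoxifen replicate 1, and it was 2 without ethanol replicate 2. Cdkn1a was at 8.61 and 8.71 with ethanol and 9.33 and 9.47 with tamoxifen, a rise of 0.74 ± 0.06 (adjusted p = 3.86e-05, limma).

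**Figure D2:**
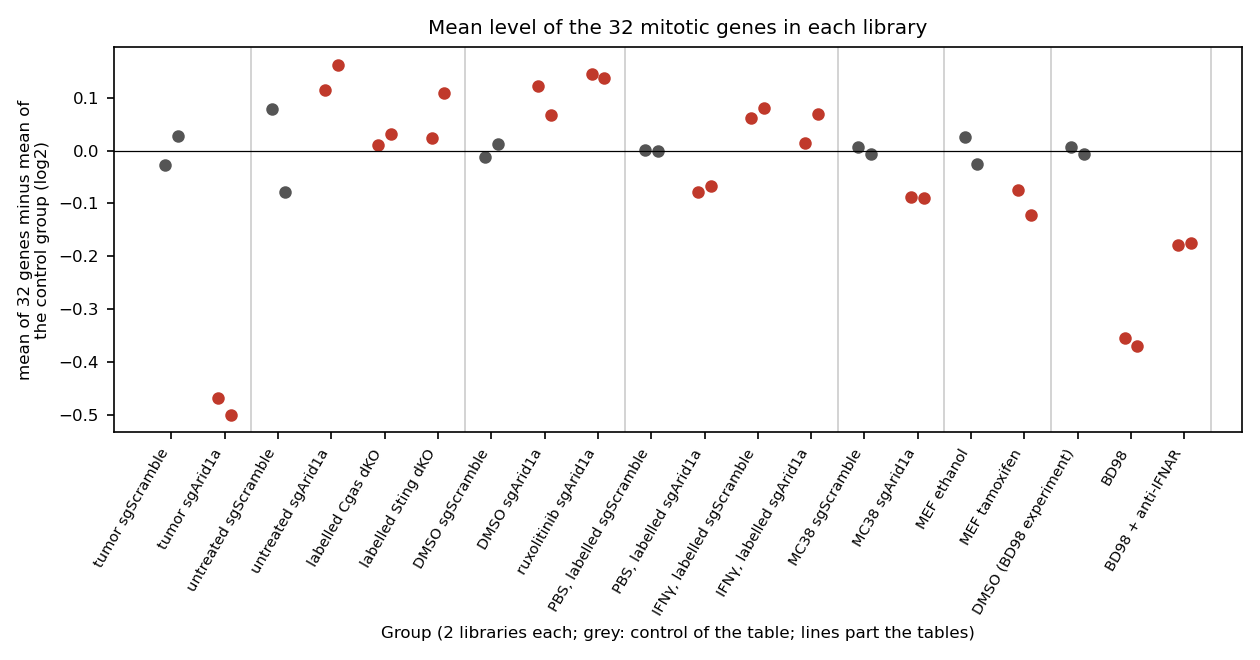
Mean log2 level of the 32 genes in each library minus the mean of its table's control group (y axis), 2 points per group (x axis), with control groups in grey. The sgArid1a tumors, with means of 11.55 and 11.52 against 11.99 and 12.04 in their controls, and the 2 BD98 libraries lie furthest below their controls.

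IFNγ gave a small rise in a part of the genes. In libraries labelled sgScramble 14 of the 32 rose and 1, Ube2c, fell, against 15.7% of all tested genes that rose and 19.3% that fell, with a median of 0.09. In libraries labelled sgArid1a 16 rose and 0 fell, against 20.9% and 21.3%, with a median of 0.12. Cenpf changed most in both. It was at 11.86 and 11.78 with PBS and 11.97 and 12.08 with IFNγ under the sgScramble label (0.21 ± 0.04, adjusted p = 0.00169, limma). Under the sgArid1a label it was at 11.73 and 11.70 with PBS and 12.06 and 12.12 with IFNγ (0.37 ± 0.04, adjusted p = 4.01e-06, limma). The IFNγ libraries are above the PBS libraries in both pairs of groups.

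Other genes of the kinetochore and of chromosome structure moved with Cenpf. Under the sgArid1a label Mki67 was at 13.71 and 13.74 with PBS and 14.003 and 14.063 with IFNγ, a rise of 0.31. Top2a was at 14.23 and 14.27 against 14.46 and 14.50, and Ttk at 9.997 and 10.04 against 10.23 and 10.37. By role 4 of 5 centromere and kinetochore genes and all 3 chromosome structure and transcription genes rose there, and 0 of 5 mitotic kinase genes were called. Under the sgScramble label 3 of 5 centromere and kinetochore genes, 1 of 3 chromosome structure and transcription genes and 1 of 5 mitotic kinase genes rose, and Bub1b, Tpx2 and Top2a followed Cenpf in p. Bub1b was at 12.06 and 12.05 with PBS and 12.18 and 12.23 with IFNγ, and Tpx2 at 12.73 and 12.67 against 12.87 and 12.84. Ube2c, the 1 gene that fell, was at 11.73 and 11.82 with PBS and 11.70 and 11.60 with IFNγ, where 1 IFNγ library lies close below the lower PBS library. The authors' deposited table has 6 of the 32 higher under this label and 0 lower, where 1595 of 24537 genes were higher and 2182 lower. Ube2c was not called there. Under the sgArid1a label it has 17 higher and 0 lower, where 2588 genes were higher and 2868 lower.

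The test of the difference between the 2 labels in their IFNγ response called 0 of the 32 genes. Of all tested genes 0.696% were called higher and 0.186% lower. At an unadjusted p under 0.05 there were 3 of the 32 and 1379 of 12357 tested genes (limma). Mki67 had the largest difference, at 0.21 ± 0.07 (adjusted p = 0.252). Within IFNγ, Top2a was higher under the sgArid1a label (14.46 and 14.50 against 14.22 and 14.30, adjusted p = 0.000743) and Cdk1 lower (12.93 and 12.92 against 13.08 and 13.02, adjusted p = 0.0419, limma), with a background of 4.03% higher and 2.70% lower. Leaving out PBS sgScramble replicate 1 left 4 higher and 1 lower of the sgScramble calls, and leaving out replicate 2 left 3 and 0. For the sgArid1a label the count was 9 without IFNγ sgArid1a replicate 2, and for the difference of responses it was 3 without IFNγ sgScramble replicate 2. Within IFNγ the count of 2 became 4 without IFNγ sgScramble replicate 2 and 1 without either sgArid1a library. Cdkn1a fell with IFNγ by 0.70 ± 0.04 under the sgScramble label and by 1.08 ± 0.04 under the sgArid1a label (adjusted p = 7.29e-10 and 2.41e-12, limma).

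In the libraries labelled dKO most of the 32 genes stayed near the sgArid1a level, and Ccnb1 did not. Ccnb1, encoding cyclin B1 (NM_172301, minus strand, mm10 chromosome 13, 100778739 to 100786486), stood at 10.89 and 10.52 in untreated sgScramble cultures and 10.78 and 10.80 in sgArid1a cultures. It was at 9.75 and 9.81 in those labelled Cgas dKO and at 9.68 and 9.70 in those labelled Sting dKO. The fold change against sgArid1a was -1.01 ± 0.11 (adjusted p = 1.71e-05) and -1.102 ± 0.112 (adjusted p = 6.88e-06, limma), or 49.8% and 46.6% of the sgArid1a level on these values. The authors' deposited fold changes against sgArid1a were larger, at -1.17 and -1.28. The 4 dKO libraries do not overlap the other 4. In the authors' deposited table Ccnb1 was also lower than in sgScramble, by -1.06 and -1.19, and 0 of the 32 genes differed between the 2 kinds of dKO, where 0.167% of all genes were higher and 0.819% lower.

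Set against the other 31 genes, as given above, Ccnb1 was high in the 4 untreated guide libraries. The dKO libraries lay within the range of the other B16F10 tables under the Sting dKO label and just above it under the Cgas dKO label (-1.199 and -1.157). By length Ccnb1 ranked 12 of 32 in the untreated sgScramble cultures, and 28 of 32 in both the control tumors and the DMSO cultures of the BD98 experiment. Of the 31-mers of its transcripts 27.7% are found in transcripts of another gene, foremost Ccnb1-ps and Gm12856, so its value is uncertain. The share was 25.5% in Cdc20 and 14.8% in Plk1, whose values carry the same doubt. Among tubulins, whose members are close copies of each other, 6 of 11 fell under the Cgas dKO label and 8 of 11 under the Sting dKO label, led by Tuba1c, at 13.73 to 14.19 in the untreated guide libraries and at 10.35 to 10.57 in the dKO libraries. The part of these tubulins and of the untreated libraries in the Ccnb1 difference was not tested.

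Under the Cgas dKO label 1 of the 32 genes, Foxm1, rose and 5 fell, against 12.2% of all tested genes that rose and 16.5% that fell. The share that fell was near that of all genes, and the share that rose was below it. Besides Ccnb1 the fallen genes were Nusap1, Mad2l1, Ccnb2 and Ndc80. Nusap1 was at 10.86 and 11.15 in sgArid1a cultures and 10.34 and 10.39 in those labelled Cgas dKO. Foxm1, the transcription factor of G2 and mitotic genes (NM_008021, mm10 chromosome 6, 128362994 to 128375886, plus strand), was at 11.48 and 11.38 against 11.90 and 11.76 (0.40 ± 0.09, adjusted p = 0.00733, limma). Mad2l1, the checkpoint protein Mad2, was at 11.38 and 11.67 against 10.99 and 11.04, and Ccnb2 at 10.88 and 11.01 against 10.48 and 10.62. Ndc80 was at 10.15 and 10.27 against 9.89 and 9.87. The groups do not overlap in these genes. Only Ccnb1 was called under each of the 8 alternative settings. The count of 6 became 1 without sgArid1a replicate 2 and 2 without Cgas dKO replicate 1.

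Under the Sting dKO label 1 of the 32 rose, again Foxm1 (11.72 and 11.89, 0.38 ± 0.09, adjusted p = 0.00932, limma), and 6 fell, against 13.9% and 17.9% of all tested genes. Here too the share that fell was near that of all genes and the share that rose was below it. Besides Ccnb1 the fallen genes were Cdc20, Nusap1, Cenpa, the histone H3 variant of centromeres, Ube2c and Cdk1. Cdc20 was at 10.60 and 10.43 in sgArid1a cultures and 10.23 and 10.04 in those labelled Sting dKO. Nusap1 was at 10.44 and 10.63 and Cenpa at 10.11 and 9.81 there, the latter against 10.37 and 10.24. Ube2c was at 10.64 and 10.66 in sgArid1a cultures against 10.29 and 10.21. The 2 dKO comparisons share their sgArid1a libraries. With sgArid1a replicate 1 or 2 left out the count was 3 or 2, without the library here called b it was 2, and without library a 4 rose and 3 fell.

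**Figure D3:**
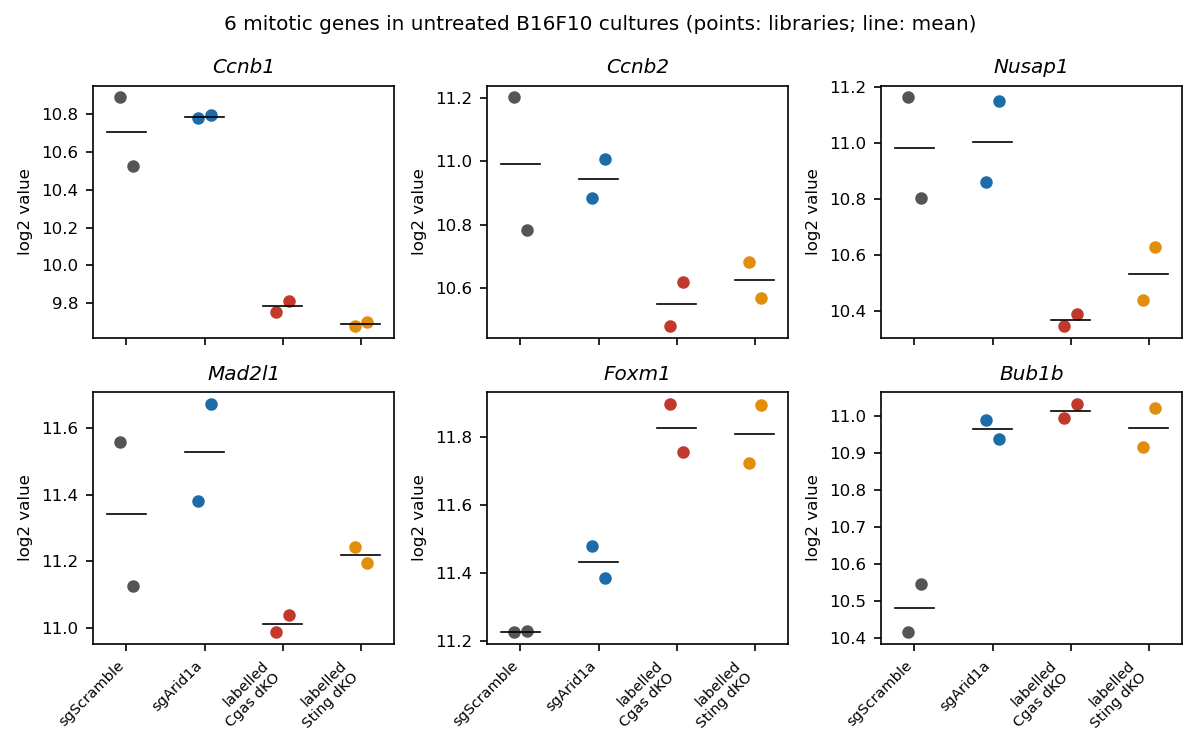
Deposited log2 values (y axis, each panel with its own range) of 6 mitotic genes in the 8 untreated cultures, grouped by label (x axis), 1 point per library and a line at the mean of 2. Ccnb1 parts the dKO libraries (9.68 to 9.81) from the guide libraries (10.52 to 10.89), and Bub1b parts the sgScramble libraries from the rest.

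In sgArid1a cells no mitotic gene passed the test after anti-IFNAR or ruxolitinib. With anti-IFNAR 0 of the 32 were called, with a median of 0.02, where 0% of all tested genes were called higher and 0.0171% lower. At an unadjusted p under 0.05 there were 0 of the 32 and 150 of 11686 tested genes (limma). The largest difference was in Cenpf, at 10.90 and 10.85 without and 10.93 and 11.07 with the antibody. With ruxolitinib 0 were called, with a median of 0.05, where 0.0255% of all tested genes were called higher and 0.195% lower. An unadjusted p under 0.05 was found in 3 of the 32 and in 1169 of 11783 tested genes (limma). Plk1, a kinase of mitotic entry and spindle assembly, was at 10.33 and 10.47 with DMSO and 10.12 and 10.15 with ruxolitinib (-0.26 ± 0.09, adjusted p = 0.471), and Bub1 at 11.81 and 11.70 against 11.98 and 11.97 (0.22 ± 0.09, adjusted p = 0.492, limma). The authors' deposited table has 1 of the 32 higher and 1 lower with ruxolitinib, where 0.542% and 1.85% of all genes were.

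Most of the mitotic genes were lower in sgScramble cultures given BD98. Of the 32, 28 fell and 0 rose (edgeR, quasi-likelihood), against 25.4% of all tested genes that fell and 24.5% that rose, with a median log2 fold change of -0.33. DESeq2 called 28 as well. The largest fall was in Kif23 (NM_024245, mm10 chromosome 9, 61917278 to 61946799, minus strand), at 127 and 128 CPM with DMSO and 74.7 and 77.9 CPM with BD98 (-0.74 on the log2 scale). Ccnb2 was at 181 and 186 CPM against 116 and 120 CPM (-0.63 ± 0.07, adjusted p = 2.78e-08). Nek2, a kinase of centrosome separation, was at 85.0 and 78.1 CPM against 51.6 and 47.2 CPM. In these 3 genes 59.9%, 64.6% and 60.4% of the control level remained, and the groups do not overlap.

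The kinetochore and its regulators followed. Cenpe, the kinesin that moves chromosomes to the spindle equator, was at 141 and 143 CPM with DMSO and 90.8 and 93.5 CPM with BD98. Foxm1 was at 249 and 261 CPM against 176 and 168 CPM (-0.57 ± 0.07, adjusted p = 1.32e-07, edgeR). Ndc80, which binds microtubules at the kinetochore, was at 99.4 and 97.5 CPM against 64.9 and 53.7 CPM. All 5 mitotic kinase and passenger complex genes fell (median -0.44), all 3 chromosome structure and transcription genes (-0.47) and all 4 cyclin and Cdk1 genes (-0.28). The 4 genes not called were Cdc20 (adjusted p = 0.118), Cenpf (0.179), Bub1b (0.241) and Ect2 (0.566, edgeR). Ect2 was at 166 and 169 CPM with DMSO and 179 and 168 CPM with BD98, so its groups overlap. Both BD98 libraries lay below both DMSO libraries in 29 genes, as for 36.6% of all tested genes. The count was 21 without DMSO replicate 1, and 20 of the 28 genes were called under each of 8 alternatives.

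Other cell cycle lists moved in both directions with BD98. Of 74 other mitotic genes 51 fell and 1 rose, and of 19 replication genes 12 fell and 0 rose. Of 8 genes of the G1 and S cyclins and their kinases 5 rose and 3 fell, among them Cdk2, by 1.54. Of 11 tubulins 6 rose and 1 fell, with Tubb2a up by 1.95. Cdkn1a was at 205 and 197 CPM with DMSO and 304 and 327 CPM with BD98, a rise of 0.65 ± 0.07 (adjusted p = 1.27e-08, edgeR). All 8 melanocyte markers fell (median -1.44), with a log2 summed level of 15.04 to 15.05 with DMSO, 13.46 to 13.54 with BD98 and 13.46 to 13.49 with both agents. The part of these genes in the lower mitotic genes was not tested.

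With anti-IFNAR added to BD98 the mitotic genes were higher than with BD98 alone. For 27 of the 32 the mean lay above that of BD98 and below that of DMSO, an order that 23.2% of all tested genes show. Genes with a higher mean with BD98 than with DMSO cannot show this order. With BD98 the fold change was negative in 31 of the 32. The fall with BD98 and the higher values with both agents are read against the same BD98 libraries. Spread in those libraries alone therefore favours this order in genes that fell. The share among all genes that fell with BD98 is not given, so 23.2% is not a matched background. Against BD98 alone the fold changes of the 32 genes were positive in 32 of 32, with a median of 0.19. Of them 4 rose and 0 fell (edgeR), against 0.109% of all tested genes that rose and 1.39% that fell. Kif23 was at 95.0 and 95.9 CPM with both agents (0.32 ± 0.07, adjusted p = 0.0208). Mki67 was at 727 and 706 CPM with DMSO, 497 and 540.0 CPM with BD98 and 627 and 644 CPM with both (0.29 ± 0.07, adjusted p = 0.0219, edgeR). Nuf2 was at 85.8 and 83.7 CPM with DMSO, 71.8 and 60.3 CPM with BD98 and 83.1 and 84.3 CPM with both, and Nek2 was at 62.0 and 62.3 CPM with both. In Nuf2 the libraries with both agents are at the DMSO level, in Kif23, Mki67 and Nek2 between the other groups.

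In 27 of the 32 genes, too, both libraries with anti-IFNAR lie above both BD98 libraries, as 19.5% of all tested genes do. This count also rests on the BD98 libraries that gave the fall, and the share among genes that fell with BD98 is not given. In 24 genes both libraries with anti-IFNAR still lie below both DMSO libraries, as 38.1% of all tested genes do. Ndc80 stayed furthest below DMSO, at 65.7% of its mean, and Kif11, Anln, Bub1b, Cenpf and Ect2 had means above that of DMSO. In the authors' deposited table, BD98 with anti-IFNAR against DMSO left 18 of the 32 lower and 1 higher, where 14.4% and 13.6% of all genes were. Cdkn1a fell with the antibody, by 0.37 ± 0.07 (237 and 250.5 CPM, adjusted p = 0.00211, edgeR). DESeq2 also called 4, but not Nuf2 and Nek2. The calls depend on single libraries: 0 genes were called without either library with both agents, and 9 without either BD98 library.

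**Figure D4:**
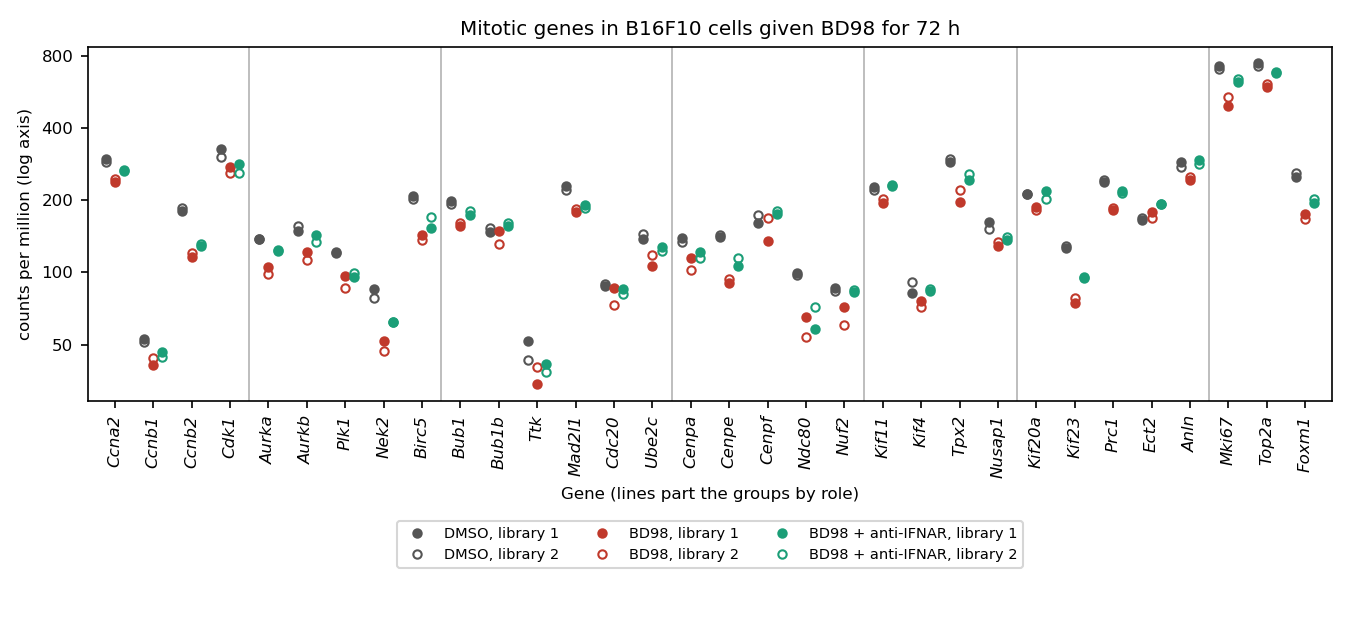
CPM (y axis, log scale) of each of the 32 genes (x axis) with DMSO (grey), BD98 (red) and BD98 with anti-IFNAR (green), 1 point per library. The red points lie below the grey ones without overlap in 29 genes, and the green points lie above the red ones without overlap in 27.

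Across the comparisons 28 genes fell both in sgArid1a tumors and with BD98, and 15 of them also in MC38 cells. Of all genes tested in both of the first 2 comparisons 11.6% fell in both, and of those tested in all 3, 2.74% fell in all 3. These 3 comparisons share no libraries. Across the 32 genes the fold changes in tumors and with BD98 had a Pearson correlation of -0.055, given as a description of genes that are not independent. Kif23 and Nek2, among the largest falls with BD98, were at -0.48 and -0.27 in tumors. Ccnb1 and Ube2c were lower in 5 comparisons and higher in 0. Those of Ccnb1 include both dKO comparisons, which share the sgArid1a libraries in which Ccnb1 stood high. The Ube2c call was lost in 5 of 7 alternatives under the Sting dKO label and in 5 of 8 for IFNγ under the sgScramble label. Among these, in both, was the fit without the filter on low values. Bub1b fell in tumors and rose in 4 others: untreated, DMSO and both IFNγ comparisons. Cenpf fell in none and rose in both IFNγ comparisons. Cdkn1a rose in tumors, in MEFs and with BD98, where 31, 1 and 28 of the 32 genes fell in the main fits. In MEFs most were called with the replicate block, for which the share of all genes called is not given. Cdkn1a also changed in other comparisons. It fell with anti-IFNAR after BD98 and with IFNγ under both labels, where most called mitotic genes rose. It was also lower under the sgArid1a label within IFNγ (-0.38, adjusted p = 3.63e-06, limma), where 1 of the 32 was higher and 1 lower, and in the difference between the labels' responses (-0.38, adjusted p = 0.00193, limma), where 0 were called. In the untreated, DMSO, PBS and MC38 guide comparisons and under both dKO labels Cdkn1a was not called. Of the 32 genes 17 fell and 0 rose in MC38 cells. In untreated cultures 4 rose and 0 fell, in DMSO cultures 2 rose and 0 fell, and in PBS cultures 0 were called. Under the Cgas dKO label 1 rose and 5 fell, and under the Sting dKO label 1 rose and 6 fell. The part of Cdkn1a in these changes was not tested.

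**Figure D5:**
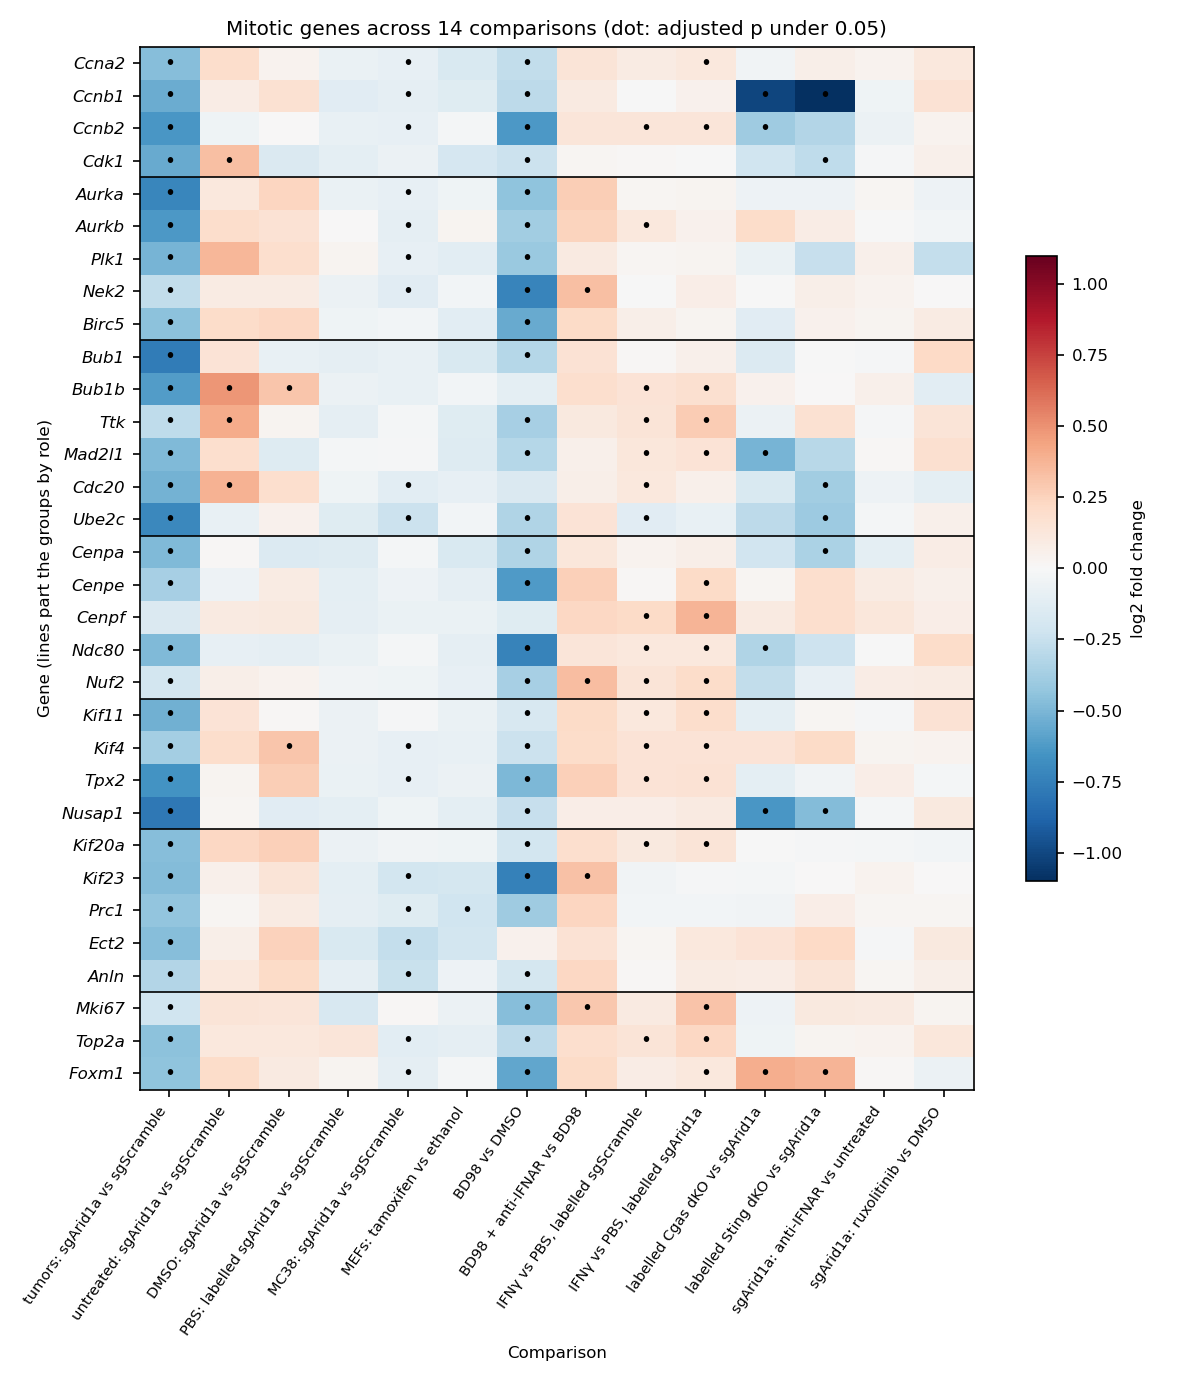
Log2 fold change (colour) of each of the 32 genes (rows, parted by role) in 14 comparisons (columns), with a dot where the adjusted p was under 0.05. The tumor and BD98 columns are blue nearly throughout, with 31 and 28 dots, and the Ccnb1 row is darkest under the 2 dKO labels.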

How the data were processed

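The series holds RNA-seq of 46 mouse samples in 23 groups of 2. The total RNA samples of sgScramble and sgArid1a B16F10 cells match no column of the gene tables and were not used. STAR 2.5.3a and the build GRCm38/mm10 are named in the submitters' processing notes, and per the file headers HOMER counted exon reads per gene with no strand option, so genes that overlap on opposite strands cannot be told apart. In 7 deposited tables the values are log2 values normalized by the authors, table by table, so levels were not compared between tables. Changes read from these values can be smaller than the authors' deposited fold changes, as in Nusap1 and Ccnb1. The BD98 table holds deposited raw counts. The authors' deposited tables also give log2 fold changes, p-values and adjusted p-values, printed only where named. A total of 10 columns of per-sample values, and the table of repeat elements, were not used.

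Log2 values were tested with limma 3.58.1 (trend, all groups of a table in 1 fit, genes with a mean of at least 4), and counts with edgeR 4.0.16 (quasi-likelihood, TMM, its filter on low counts), with DESeq2 1.42.0 as an alternative, in R 4.3.3. CPM were computed from the counts with TMM scaling. P-values were adjusted by Benjamini-Hochberg over all tested genes, and called genes have an adjusted p under 0.05. An exact permutation test of 2 against 2 libraries cannot go below p = 0.333. Depth was 8.7 to 38.8 M reads, and the scripts were tested on simulated data. Alternatives were filters, scalings, a replicate block, fits on the compared groups only and leaving out each library, 128 fits in all.

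The members and lists were chosen with earlier results of these data known. Values per library are given for the genes with the smallest p, the largest changes and calls against the majority, and for up to 2 genes of each other list; further genes were chosen after their values were seen.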

Additional observations from a re-analysis of the deposited data

Results flagged for a closer look

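The mean log2 difference over the 32 genes between the libraries labelled for Arid1a loss (sgArid1a guide or tamoxifen) and their controls had opposite signs in different settings, with each library of the group moving the same way. It was -0.484 in tumors, -0.073 in PBS cultures, -0.089 in MC38 cells and -0.098 in MEFs, and it was 0.139 in untreated and 0.095 in DMSO cultures of B16F10 cells. Arid1a itself did not follow the labels in the PBS cultures and did not pass the test in the DMSO cultures. These 6 mean differences come from separate tables, and the difference between them was not tested.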

How the results depend on the processing

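Of the counts of called genes, 82 of 128 alternative values stayed within 1.5 times the main count, 45 moved and 1 reversed its majority direction, and the cause was not tested. Without the filter on low values the counts were 1 in DMSO, 1 between guides within IFNγ, 4 under the Sting dKO label, 8 for anti-IFNAR after BD98 and 6 in MC38 cells. With libraries centred on their median they were 2 in PBS and 0 in MEFs. Fitted on the compared groups only, they were 1 in untreated, 0 in DMSO, 5 in PBS, 1 within IFNγ and 11 under the Cgas dKO label. Leaving out 1 library at a time gave 29 to 32 in tumors, 0 to 7 in untreated, 0 to 18 in DMSO, 1 to 4 within IFNγ, 3 to 13 for IFNγ under the sgScramble label, 9 to 15 under the sgArid1a label, 0 to 3 for the difference of responses, 1 to 4 under the Cgas dKO label, 2 to 7 under the Sting dKO label, 21 to 29 with BD98, 0 to 9 for anti-IFNAR after BD98, 5 to 16 in MC38 cells and 0 to 2 in MEFs. Without library a of the Sting dKO label the 7 calls were 4 higher and 3 lower.

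The labels do not say that equal replicate numbers pair libraries, and the shares of all genes called with a replicate block are not given. With the replicate block the counts were 1 in untreated, 0 in DMSO, 3 under the Cgas dKO label, 10 for anti-IFNAR after BD98, 23 in MEFs and 29 in tumors, and within 1.5 times the main count in the other comparisons so fitted. The correlation of same-numbered deviations was -0.51 in tumors and 0.69 in MEFs. No paired analysis was possible for the Sting dKO label because its columns carry no replicate number.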
